A study of Mus musculus with 14 samples.

Results

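Immediate early genes are switched on within minutes of a stimulus and without new protein synthesis. The 10 described here are Fos, Fosb, Jun, Junb, Jund, Egr1, Atf3, Ier2, Nr4a1 and Btg2, taken by symbol from the 52550 genes of a count table. The list was chosen with earlier results of these data known, and each symbol matched 1 gene. The samples were triceps muscles of 14 male mice, FLExDUX4 or their WT littermates. FLExDUX4 mice carry a human DUX4 transgene and are a model of facioscapulohumeral muscular dystrophy. There were 3 WT controls and 3 FLExDUX4 controls without running, and 4 WT runners and 4 FLExDUX4 runners that had a running wheel for 6 weeks. By its title, the study asked whether aerobic exercise improves the deficits of this model. The sources used here give neither ages nor the time between the last run and tissue collection. Human DUX4 itself is not analysed here, so the genotypes are as labelled.

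In resting cells these genes are mostly quiet or low. Calcium, mitogen-activated kinases and cyclic AMP act on factors such as SRF and CREB that already sit at their promoters, and transcription starts at once. Fos and Jun proteins pair to form AP-1, Egr1 and Nr4a1 bind DNA as separate factors, and their messages and proteins decay fast, so that a burst is over within hours. Contraction is a known stimulus of Fos, Jun, Egr1, Atf3 and Nr4a1 in skeletal muscle.

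Libraries were made with a kit that reads the 3′ end of each messenger RNA, so that a count is not scaled by gene length. Library totals ran from 3315921 counts in WT control 3 to 7089226 in FLExDUX4 control 3. Levels are given in CPM, which scale counts to a common library size, and 3 counts equal 0.429 to 0.918 CPM. Mitochondrial transcripts took 20.9% to 26.4% of gene counts in WT mice without running and 27.0% to 36.6% with it, which did not overlap, and 20.5% to 29.2% and 26.6% to 39.8% in FLExDUX4 mice. The summed CPM of 8 muscle fibre markers was likewise lower in WT runners (83800 to 116000) than in WT controls (128000 to 132000) without overlap, while FLExDUX4 controls (114000 to 125000) and runners (88800 to 117000) overlapped. Of these 8 markers none was called with running in WT mice, 7 lay below 0 and 4 had an unadjusted p under 0.05. The markers did not move as one. Mb lay above 0 and had the smallest p of the 8 (log2 2.90 ± 0.63, SE; edgeR adjusted p = 0.0843). Mean Mb was 361 CPM in WT controls and 2700 in WT runners, while mean Myh4 was 35900 and 19800 CPM. Endothelial markers summed to 139 to 152 CPM in the control mice of the WT genotype and to 209 to 291 in its runners, and in FLExDUX4 mice to 169 to 186 CPM without and 132 to 231 with running, so WT runners lay above WT controls. Red blood cell genes also lay higher in WT runners, at 1130 to 1840 CPM against 441 to 955 in WT controls. Macrophage and neutrophil markers overlapped between all groups, within 53.1 to 123 CPM. None of the marker genes was at 0 in all mice. With running in WT mice, 2 markers were called: Kdr, an endothelial receptor (log2 1.21 ± 0.26, SE; edgeR adjusted p = 0.0411), and Rgs5 of pericytes (0.68 ± 0.16; edgeR adjusted p = 0.0433). Both were also called for running averaged over genotype, at 0.90 ± 0.18 and 0.46 ± 0.11 (edgeR adjusted p = 0.0197 and 0.0389). The part of these shifts in the values of the immediate early genes was not tested, beyond the relations across mice given further on. In whole muscle, fewer cells of a type and less RNA per cell cannot be told apart.

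None of the 10 genes passed the test in any comparison of genotype or running, and most of them differed widely between mice of the same group. The promoters of 5 are shown because the text returns to them. Fos, Fosb and Btg2 had the most similar deviations from group means between mice, though no pair passed the test. Fosb had only 52 counts in all, and nothing is read from its pairs. Nr4a1 had the highest mean level with a wide spread, and Jun was as high with a narrow spread. Each sequence is the 250 bases before the RefSeq start site on GRCm38.p6, on the strand of the gene. Capitals mark matches on either strand to a pattern like the cyclic AMP response element (TGACNTCA) and to that element's core (TGACGT). The pattern holds the core only where N is G, so TGACATCA and TGACCTCA lack it. Also marked are an AP-1-like site (TGCGTCA), an Egr site (GCGNGGGCG) and a TATA box (TATAAA).
Fos, chr12:85473640-85473889, plus strand: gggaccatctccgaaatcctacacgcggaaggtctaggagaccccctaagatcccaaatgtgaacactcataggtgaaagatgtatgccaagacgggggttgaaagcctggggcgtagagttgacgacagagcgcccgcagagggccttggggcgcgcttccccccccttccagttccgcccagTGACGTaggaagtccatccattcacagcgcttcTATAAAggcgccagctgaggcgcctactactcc
Fosb, chr7:19310046-19310295, minus strand: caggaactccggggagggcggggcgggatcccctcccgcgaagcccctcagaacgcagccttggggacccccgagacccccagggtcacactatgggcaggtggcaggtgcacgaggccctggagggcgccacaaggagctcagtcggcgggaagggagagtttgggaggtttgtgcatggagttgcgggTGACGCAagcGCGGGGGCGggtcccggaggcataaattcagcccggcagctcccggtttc
Btg2, chr1:134079156-134079405, minus strand: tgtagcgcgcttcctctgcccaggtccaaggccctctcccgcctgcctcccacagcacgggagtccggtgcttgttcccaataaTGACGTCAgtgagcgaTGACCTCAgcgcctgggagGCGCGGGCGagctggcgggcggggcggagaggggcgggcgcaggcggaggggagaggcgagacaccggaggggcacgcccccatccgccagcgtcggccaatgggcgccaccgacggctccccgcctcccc
Nr4a1, chr15:101266596-101266845, plus strand: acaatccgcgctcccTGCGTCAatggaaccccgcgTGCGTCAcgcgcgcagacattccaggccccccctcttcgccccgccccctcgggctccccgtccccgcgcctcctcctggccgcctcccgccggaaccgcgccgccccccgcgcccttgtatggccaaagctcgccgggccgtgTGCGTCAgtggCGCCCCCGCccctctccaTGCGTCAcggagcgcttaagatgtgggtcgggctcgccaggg
Jun, chr4:95052223-95052472, minus strand: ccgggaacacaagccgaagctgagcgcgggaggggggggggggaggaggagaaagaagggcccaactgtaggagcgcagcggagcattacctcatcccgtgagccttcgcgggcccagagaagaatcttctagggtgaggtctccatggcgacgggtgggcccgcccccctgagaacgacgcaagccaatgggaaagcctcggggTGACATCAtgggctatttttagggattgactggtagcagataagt

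Both strands of these 250 bases were searched in 8 members. Ier2 had no matched RefSeq promoter entry, and Egr1 was left out of the search, so its promoter is not covered here. Fos has TGACGT at bases 66 to 61 before its start and TATAAA at bases 33 to 28. Jun has TGACATCA at bases 45 to 38, and Btg2 has TGACGTCA at bases 166 to 159 and TGACCTCA at bases 150 to 143. The TGACGT core occurred in 3 of 8 members, Fos, Atf3 and Btg2, and in 6.47% of 32851 promoters of the same length. The 8-base element TGACNTCA occurred in 2 of 8, Jun and Btg2, against 7.49% of promoters. Nr4a1 holds TGCGTCA 4 times, beginning 235, 215, 71 and 42 bases before its start, and Fosb holds it once on the other strand. That motif occurred in 1.75% of promoters. The Egr motif was in Fosb, Nr4a1 and Btg2 and in 4.7% of promoters, and TATAAA was in Fos alone and in 12.4% of promoters. The AP-1 site TGANTCA (6.75% of promoters) and the CArG box, the binding motif of SRF (1.47%), had no match in these windows. Sites farther than 250 bases before a start were not searched, so these genes are not shown to lack them.

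The members differed in level as well as in steadiness. Nr4a1 averaged 79.9 CPM ± 45.7 (SD, n = 14 mice) and Jun 78.9 ± 14.3, so their means differed by less than their spread. Jund followed at 19.4 CPM ± 5.85. Btg2 at 11.2 ± 5.41, Fos at 11.1 ± 10.8, Junb at 9.23 ± 7.59 and Egr1 at 7.13 ± 5.10 CPM were neighbours within their spread. Atf3 averaged 4.88 CPM ± 4.64, Ier2 2.32 ± 1.41 and Fosb 0.943 ± 1.42. These are 3′ counts per gene, and how well each 3′ end was captured also enters a comparison between genes. All 10 passed the filter on low counts and are among the 11088 genes tested, Fosb through 3 control mice alone.

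**Figure D1:**
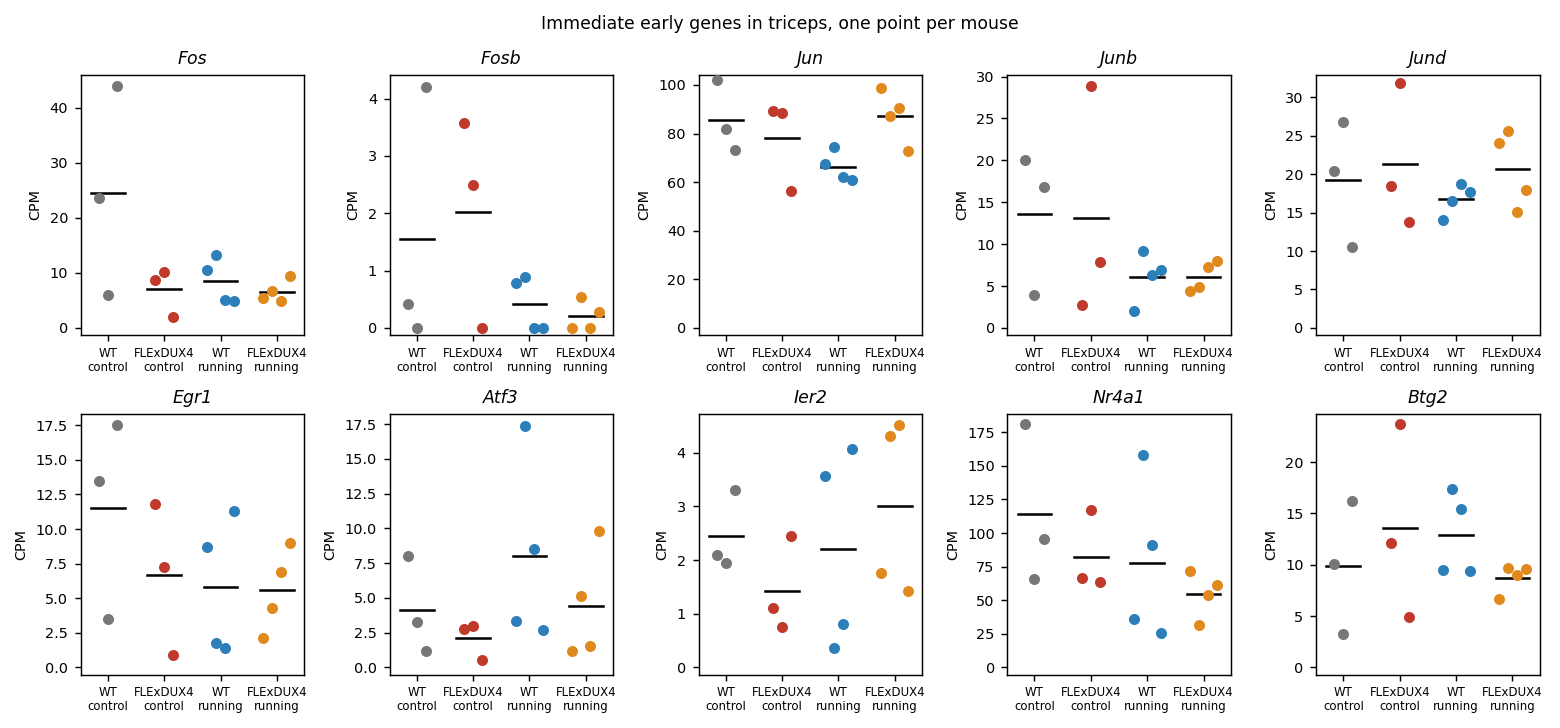
CPM of the 10 immediate early genes in each of 14 mice, by group, on linear axes that start near 0; points are mice and black lines are group means. The groups of each gene overlap, and Fos reaches 43.9 CPM in a WT control while FLExDUX4 controls lie between 2.06 and 10.2.

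Fos (chromosome 12, 85473890 to 85477273 on GRCm38, plus strand) encodes the archetypal AP-1 subunit, which needs a Jun partner to bind DNA. WT controls held 23.6, 6.05 and 43.9 CPM, and FLExDUX4 controls 8.78, 10.2 and 2.06 CPM. WT runners held 10.5, 13.3, 5.08 and 4.96 CPM, and FLExDUX4 runners 5.44, 6.73, 4.82 and 9.41 CPM. WT controls 1 and 3 stood above all other mice, while WT control 2 lay among them, so each pair of groups overlapped. In edgeR's quasi-likelihood test with Benjamini-Hochberg adjustment, FLExDUX4 controls differed from WT controls by a log2 fold change of -1.85 ± 0.70 (SE; adjusted p = 0.969). WT runners differed from WT controls by -1.51 ± 0.62 (adjusted p = 0.407 by the same test). Without WT control 3, the mouse with the highest Fos and the fewest counts, these values were -1.13 and -0.80. In FLExDUX4 mice the running difference was 0.00 ± 0.53, and the difference between the genotypes in the running effect was 1.52 ± 0.93 (edgeR adjusted p = 0.974).

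Fosb (chromosome 7, 19302696 to 19310051, minus strand) encodes a paralogue of Fos whose truncated form, ΔFosB, is known in neurons for its long life. It was the rarest member, with 52 counts in all and 0 counts in 6 mice. WT controls held 0.421, 0 and 4.21 CPM, and FLExDUX4 controls 3.57, 2.49 and 0 CPM. WT runners held 0.792, 0.888, 0 and 0 CPM, and FLExDUX4 runners 0, 0.538, 0 and 0.285 CPM. The 3 mice above 1 CPM were controls, with 10 to 14 counts each, and every group held mice at 0. Fosb passed the filter on low counts only through these 3 controls, so the filter itself favours a lower value in runners, and nothing is read from its running differences. Averaged over genotype, the fitted log2 fold change of runners over controls was -2.40 ± 1.00 (SE; edgeR adjusted p = 0.292), and -1.09 without WT control 3. Within FLExDUX4 mice the difference was -3.07 ± 1.46 (edgeR adjusted p = 0.728). A gene with this few counts gives no finer answer at this depth.

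Jun (chromosome 4, 95049034 to 95052222, minus strand) encodes the AP-1 partner that can also pair with itself. WT controls held 102, 81.7 and 73.4 CPM, and FLExDUX4 controls 89.4, 88.5 and 56.3 CPM. WT runners held 67.5, 74.6, 61.9 and 60.7 CPM, and FLExDUX4 runners 98.6, 87.2, 90.3 and 72.7 CPM. Jun was the steadiest member, with a highest value 1.81 times its lowest, and the runners of the 2 genotypes overlapped only between 72.7 and 74.6 CPM. FLExDUX4 runners differed from WT runners by a log2 fold change of 0.40 ± 0.16 (SE; edgeR adjusted p = 0.999). The WT runners differed from the WT controls by -0.37 ± 0.17 (edgeR adjusted p = 0.407). The interaction of genotype and running was 0.54 ± 0.24 (edgeR adjusted p = 0.954). With library sizes from the spike-ins, added RNAs of known amount, the WT running difference was -0.01 and the interaction 0.19. That scaling brought the median of all genes to 0.37 and -0.32 in these comparisons, from 0.01 and -0.01. Leaving out WT control 1 gave -0.23 for running in WT mice, and leaving out FLExDUX4 control 3 gave 0.34 for the interaction. Jun overlaps an antisense gene, Junos, which had 39 counts in all, and the strand setting of the counting was not given.

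Junb (chromosome 8, 84974484 to 84978718, minus strand) encodes a Jun protein known in mouse muscle for a part in keeping fibre size. WT controls held 20, 3.89 and 16.8 CPM, and FLExDUX4 controls 2.74, 28.9 and 7.85 CPM. WT runners held 1.98, 9.23, 6.29 and 6.90 CPM, and FLExDUX4 runners 4.47, 4.84, 7.23 and 7.98 CPM. The 3 highest mice were controls, and the other 3 controls lay within the range of the runners. The running difference averaged over genotype was -1.11 ± 0.52 on the log2 scale (SE; edgeR adjusted p = 0.431), and -0.49 without FLExDUX4 control 2. Prdx2 lies on the opposite strand and overlaps Junb, and with the strand setting unknown its reads cannot be told apart from those of Junb. Prdx2 held 46.9 to 101 CPM, and its deviations from group means ran against those of Junb (r = -0.47 over 14 mice, a description).

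Jund (chromosome 8, 70698949 to 70700616, plus strand) is the constitutive Jun gene, less inducible than the others. It ranged from 10.5 CPM in WT control 3 to 31.9 in FLExDUX4 control 2, a 3.03-fold range. Group means for WT were 19.2 ± 8.19 CPM (SD, n = 3) without running and 16.7 ± 2.0 (n = 4) with it. Those for FLExDUX4 were 21.4 ± 9.43 CPM (n = 3) and 20.7 ± 4.99 (n = 4). All groups overlapped, and the running difference averaged over genotype was -0.12 ± 0.20 (SE, log2; edgeR adjusted p = 0.884), with the opposite sign, 0.04, under spike-in scaling.

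Atf3 (chromosome 1, 191170296 to 191218039, minus strand) encodes a stress-induced factor that mostly represses transcription. WT controls held 7.99, 3.24 and 1.20 CPM, and FLExDUX4 controls 2.74, 2.99 and 0.515 CPM. WT runners held 3.36, 17.4, 8.53 and 2.65 CPM, and FLExDUX4 runners 1.17, 5.11, 1.51 and 9.83 CPM. Its range, 33.8-fold over the 14 mice, was the widest among the 9 members with counts in every mouse. The 3 highest mice were runners, and the rest of the runners lay among the controls. The running difference averaged over genotype was 1.07 ± 0.64 (SE, log2; edgeR adjusted p = 0.566), and with mice left out in turn it ran from 0.65 without FLExDUX4 running 4 and 0.70 without WT running 2 to 1.50.

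Egr1 (chromosome 18, 34859823 to 34864984, plus strand) encodes a zinc finger factor that reads out kinase signalling. WT controls held 13.5, 3.46 and 17.5 CPM, and FLExDUX4 controls 11.8, 7.23 and 0.900 CPM. WT runners held 8.71, 1.78, 1.42 and 11.3 CPM, and FLExDUX4 runners 2.14, 4.31, 6.92 and 8.98 CPM. Low and high mice occurred in each group, and the lowest was FLExDUX4 control 3, the deepest library. The running difference averaged over genotype was -0.56 ± 0.65 (SE, log2; edgeR adjusted p = 0.824). It was -0.19 without FLExDUX4 control 1, -0.36 without WT control 3 and -0.85 without FLExDUX4 control 3, and -0.13 by limma-voom and -0.33 under spike-in scaling.

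Nr4a1 (chromosome 15, 101254269 to 101274795, plus strand) encodes the orphan nuclear receptor Nur77, which in mouse muscle raises genes of glucose use. The deposited position of this gene, 101266846, lies inside the annotated gene and is the base after the promoter window shown. WT controls held 181, 65.7 and 95.7 CPM, and FLExDUX4 controls 66.4, 117 and 63.4 CPM. WT runners held 36.2, 158, 91.4 and 25.5 CPM, and FLExDUX4 runners 71.7, 31.2, 53.9 and 61.1 CPM. The WT runners spanned a 6.21-fold range that took in all other mice but WT control 1. Group means stood in the order WT controls (114 ± 59.9), FLExDUX4 controls (82.4 ± 30.4), WT runners (77.8 ± 60.9) and FLExDUX4 runners (54.5 ± 17.2 CPM; SD), with neighbours closer than their spread. The running difference averaged over genotype was -0.57 ± 0.43 (SE, log2; edgeR adjusted p = 0.681), with -0.32 without WT control 1 and -0.88 without WT running 2.

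Ier2 (chromosome 8, 84661331 to 84662852, minus strand) encodes a small nuclear protein and had 153 counts in all. It ranged from 0.355 CPM in WT running 2 to 4.52 in FLExDUX4 running 3, and group means lay between 1.43 ± 0.896 CPM in FLExDUX4 controls and 3.00 ± 1.64 in FLExDUX4 runners (SD, n = 3 and 4). Its running difference averaged over genotype was 0.41 ± 0.55 (SE, log2; edgeR adjusted p = 0.851), from 0.17 without WT running 4 to 0.75 without FLExDUX4 control 3, and -0.05 by limma-voom. Btg2 (chromosome 1, 134075170 to 134079120, minus strand) encodes an antiproliferative protein that is a p53 target and promotes messenger RNA decay. WT controls held 10.1, 3.24 and 16.2 CPM, and FLExDUX4 controls 12.1, 23.7 and 4.89 CPM. WT runners held 9.50, 17.4, 15.4 and 9.38 CPM, and FLExDUX4 runners 6.61, 9.69, 9.03 and 9.55 CPM. FLExDUX4 runners were close together and the controls of both genotypes far apart. The running difference averaged over genotype was -0.09 ± 0.33 (SE, log2; edgeR adjusted p = 0.955), and 0.07 under spike-in scaling.

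**Figure D2:**
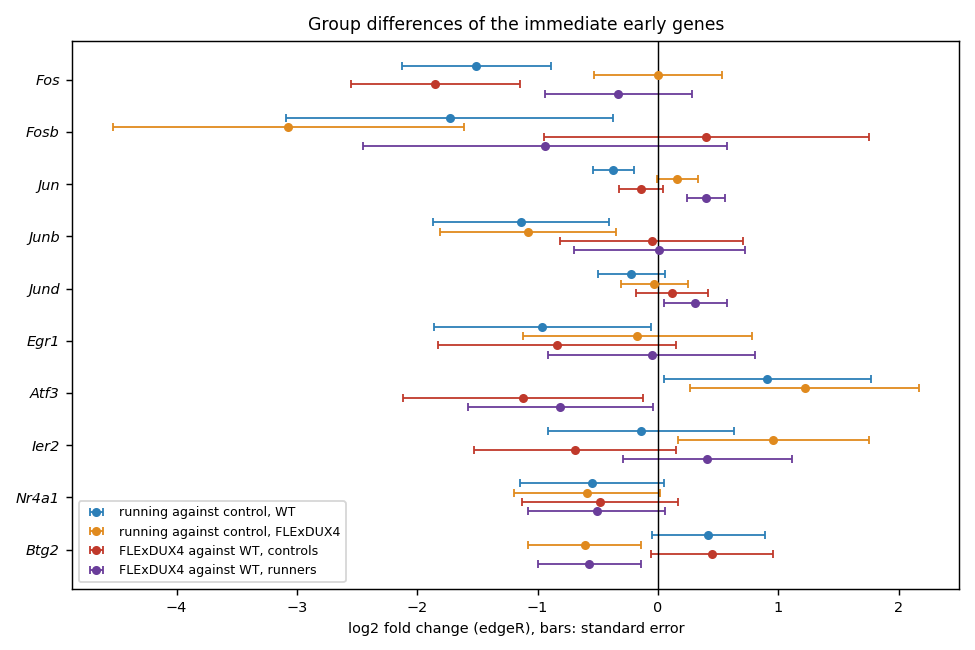
Log2 fold changes of the 10 genes (edgeR) with standard errors, for running against control in each genotype and FLExDUX4 against WT in controls and in runners. The standard errors are derived from the fold change and the F statistic of the test. Fos in controls (-1.85) and Fosb with running in FLExDUX4 mice (-3.07) lie far from 0, with standard errors of 0.70 and 1.46. Fosb passed the filter on low counts through controls alone, and nothing is read from its running values.

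Counted over the list, 0 of 10 members were called at an adjusted p under 0.05 by edgeR in any of the 7 comparisons, nor by DESeq2 or limma-voom. The background was as thin for genotype: 0.0% of all tested genes were called in controls, in runners, on average and for the interaction. It was 0.0% for running in FLExDUX4 mice, 0.496% for running in WT mice and 0.857% for running averaged over genotype. At an unadjusted p under 0.05, the WT running comparison held 2 members, Fos and Jun, where 10.7% of all genes passed. The other comparisons held 1 each. That was Fos for genotype in controls (5.0% of genes) and on average (3.77%), Fosb for running in FLExDUX4 mice (6.66%) and on average (12%), and Jun for genotype in runners (3.16%) and the interaction (4.84%). Fosb is counted here for completeness only, since it passed the filter on low counts through controls alone. DESeq2 gave 0 and limma-voom 0 for running in FLExDUX4 mice, 2 each for running in WT, and 1 and 2 for genotype in controls, with 1 each elsewhere. DESeq2 gave no adjusted p for 5 members in the WT and the averaged running comparison. No member had groups that did not overlap, against 11.4% and 2.51% of genes for genotype in controls and runners and 7.17% and 10.3% for running in FLExDUX4 and WT mice. Averaged over genotype, 8 of 10 members, Fosb among them, lay below 0 with running and the median was -0.34, beside 0.01 over all tested genes; under spike-in scaling Jun, Jund and Btg2 turned to above 0. Without the filter on low counts Fos alone was called, for genotype in controls (0.0573% of 20938 genes called) and for running in WT mice (1.04%). The authors' deposited table holds no member at an adjusted p under 0.05 where it gives one, but it often gives none. For WT controls against WT runners it gives one for Jun and Nr4a1 alone. There the deposited DESeq2 p was 0.0243 for Fos and 0.0397 for Junb. For FLExDUX4 runners against WT controls it was 0.00639 for Fos and 0.0417 for Junb, again without an adjusted p. The deposited log2 value for Fos, FLExDUX4 controls over WT controls, is -0.667 with a DESeq2 p value of 0.00954 and an adjusted p of 1. Fitted here, the same difference was -1.85 by edgeR and -1.80 by DESeq2, so the deposited sizes are not on a like scale. The reason was not tested.

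Most members had a wide spread between mice of the same group beside genes of their own level. For each member the SD of log2 CPM within groups was placed among tested genes within 0.5 log2 units of its mean level. Egr1 had an SD of 1.28 against a median of 0.54 and exceeded 99.5% of 1993 such genes. Nr4a1 had 0.82 against 0.21 and exceeded 99.2% of 833 genes. Fos (0.93, above 99.1%), Junb (1.05, above 99.0%), Atf3 (1.19, above 98.6%) and Btg2 (0.76, above 98.0%) stood as high. Jund at 0.46 exceeded 88.9% and Fosb at 1.28 exceeded 85.8% of 141 genes at its low level. Jun, at 0.24 above 66.3%, and Ier2, at 0.87 above 61.2%, varied about as much as other genes of their level. These places are descriptions, with no test.

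**Figure D3:**
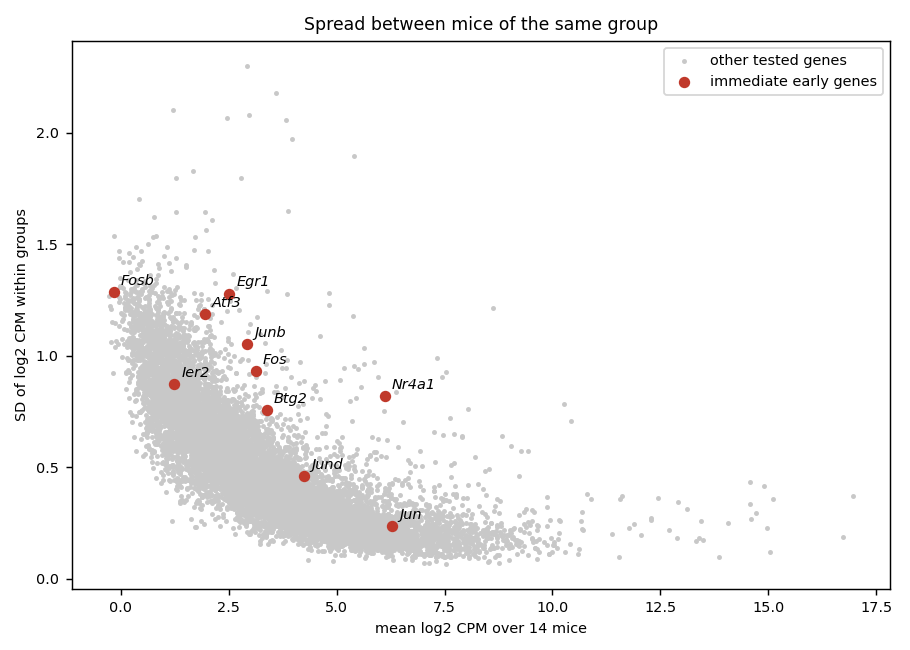
SD of log2 CPM within groups against mean log2 CPM for the 11088 tested genes (grey) and the 10 immediate early genes (red, labelled). Egr1, Atf3, Junb, Fos, Nr4a1 and Btg2 lie along the upper edge of the cloud at their levels, while Jun and Ier2 lie inside it.

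Group means were subtracted from log2 CPM to ask whether members deviated together in the same mice. Fos and Fosb had the highest correlation of the 45 pairs (Pearson r = 0.93, Spearman rho = 0.95, n = 14 mice; 2-sided exact permutation within groups p = 0.00174, adjusted p = 0.0781 over 45 pairs). It was 0.88 without the 2 mice farthest out in Fos. Fos and Btg2 gave r = 0.85 and rho = 0.77 (exact permutation p = 0.0154, adjusted p = 0.231), and 0.65 without the 2 mice farthest out in Fos. Ier2 ran against Nr4a1 (r = -0.82, rho = -0.77, exact permutation p = 0.0119, adjusted p = 0.231, and -0.66 without the 2 mice farthest out in Ier2). It also ran against Atf3 (r = -0.70, rho = -0.61, exact permutation p = 0.0212, adjusted p = 0.238, and -0.81 without the 2 mice farthest out in Atf3). No pair passed an adjusted p of 0.05 by r or rho, and 6 pairs had an unadjusted p under 0.05 by each measure. Of the 45 pairs 32 had r above 0, with a median of 0.26. Egr1 gave r = 0.60 with Fos (rho = 0.52), but 0.27 without the 2 mice farthest out in Fos. With Btg2 it gave r = 0.44 (rho = 0.16), but -0.05 without the 2 mice farthest out in Egr1. Junb was at 0.66 with Btg2 and 0.55 with Nr4a1, and at 0.69 and 0.52 without the 2 mice farthest out in Junb. Jund stood outside, at -0.19 with Fos.

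**Figure D4:**
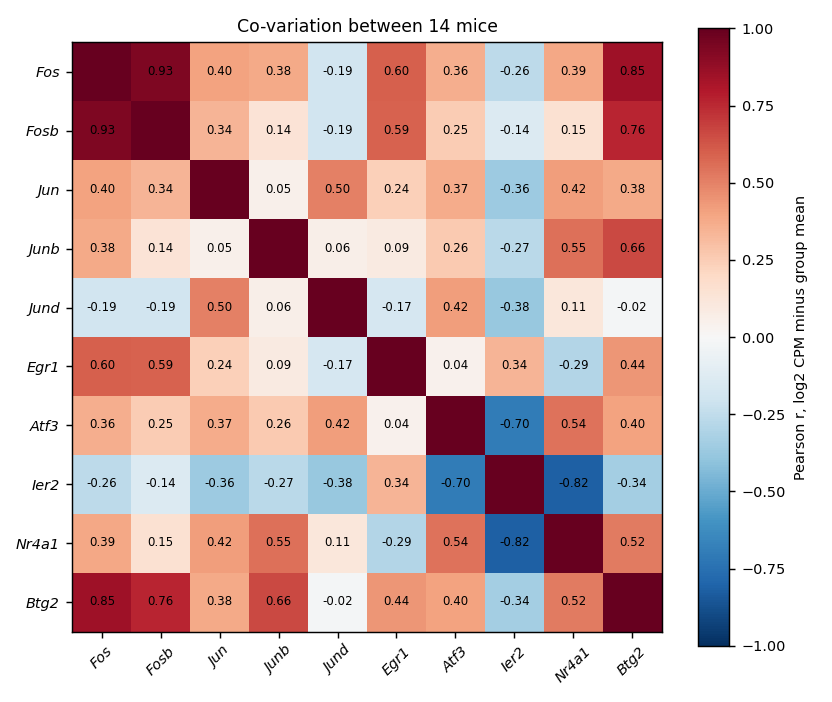
Pearson r between the 10 genes over 14 mice after subtracting group means from log2 CPM. Fos, Fosb and Btg2 form a block with r from 0.76 to 0.93, and the row of Ier2 is mostly negative, down to -0.82 with Nr4a1. Fosb had 0 counts in 6 mice and passed the filter on low counts through controls alone, so nothing is read from its pairs.

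The 7 members of at least 5 CPM on average (Fos, Jun, Junb, Jund, Egr1, Nr4a1 and Btg2) were scaled to the same SD and averaged for each mouse. FLExDUX4 control 2 was highest at 1.19 SD units and FLExDUX4 control 3 lowest at -1.30. WT controls 1, 2 and 3 were at 0.71, -0.90 and 0.19, and FLExDUX4 control 1 at 0.11. WT running 2 was at 0.61, and the other 7 runners lay between -0.29 and 0.10. The mice far from their group were thus mainly controls. Each member and this mean were compared with 8 measures of the libraries: depth, spike-in share, mitochondrial share, and the summed endothelial, smooth muscle, macrophage, red blood cell and heat shock genes. Of these 88 relations none passed an adjusted p of 0.05 by a permutation test within groups, and 2 had an unadjusted p under 0.05 by r (Junb with endothelial and Jund with macrophage markers). The mean of the 7 members against log2 gene counts gave r = -0.39 and rho = -0.35 (n = 14, permutation p = 0.348 and 0.332, adjusted p = 0.839 and 0.888). It gave r = -0.16 without the 2 mice farthest out in gene counts. Other relations of that mean also moved when the 2 mice farthest out in the measure were left out. Against the spike-in share r went from -0.28 (rho = -0.02; permutation p = 0.647 and 0.972; adjusted p = 0.956 and 0.975) to 0.70. Against macrophage and neutrophil markers it went from 0.23 (rho = 0.09; permutation p = 0.484 and 0.803; adjusted p = 0.956 and 0.975) to 0.57.

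**Figure D5:**
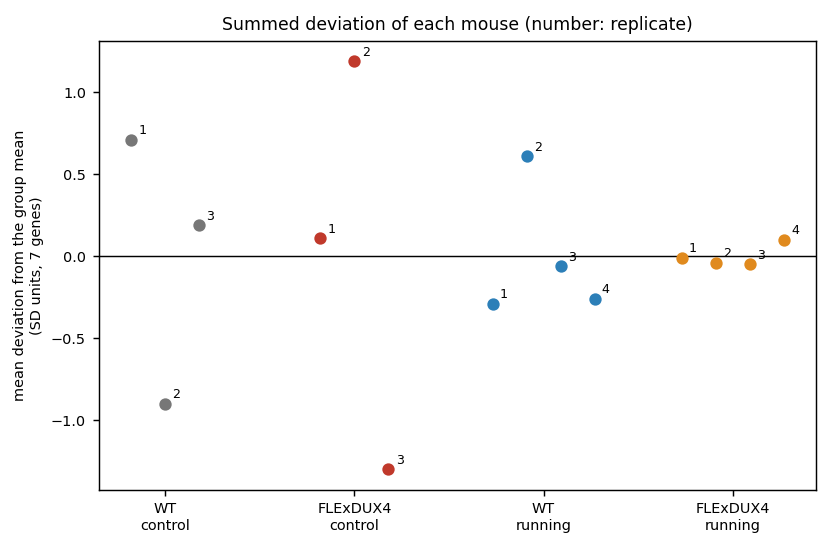
Mean deviation from the group mean, in SD units over 7 members, for each mouse (numbers are replicates). FLExDUX4 controls spread from -1.30 to 1.19 and WT controls from -0.90 to 0.71, and the FLExDUX4 runners lie between -0.05 and 0.10.

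The 8 other genes of at least 5 CPM whose deviations were most like that mean included several known stimulus-induced genes. They were Ddit4 (r = 0.88, rho = 0.80), an inhibitor of mTORC1 induced by stress and glucocorticoids, Nfkbia (0.87, 0.84), the NF-κB inhibitor, and Rpl35 (0.86, 0.89), a ribosomal protein gene. Klf2 (0.85, 0.77) and Klf6 (0.85, 0.69) are zinc finger factors, Nfkb1 (0.83, 0.67) encodes an NF-κB subunit, and Otud1 (0.83, 0.78) a deubiquitinase. The last was Atxn7l3b (0.81, 0.84). Ddit4 held 59.5, 2.16 and 6.62 CPM in WT controls and 20.6, 81.3 and 5.66 in FLExDUX4 controls. In WT runners it held 9.30, 117, 26.2 and 9.03 CPM and in FLExDUX4 runners 8.75, 5.38, 11.1 and 10.1, so that WT control 1, FLExDUX4 control 2 and WT running 2 stood out as they did in the mean. Of the list of other immediate early genes, 12 of 29 (41.4%) had r of at least 0.5 with the mean, beside 384 of 7558 (5.08%) of all genes of that level. Among them were Tiparp (0.71), Gadd45g (0.70), Irs2 (0.65), Rhob (0.63), Cebpd (0.61), Klf4 (0.57), Per1 (0.55) and Sgk1 (0.53). Of other AP-1 genes 1 of 11 did (Fosl2, 0.51), of feedback inhibitors 2 of 11, of upstream kinases and factors 3 of 26, and of heat shock genes 0 of 7. These are descriptions over the same 14 libraries.

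Of the 6 lists of related genes (other AP-1, other Egr and Nr4a, other immediate early, feedback, upstream and heat shock genes), none held a called gene in any comparison. For running averaged over genotype, 13 of 17 other AP-1 and related genes were tested. The median log2 difference of these 13 was -0.15, and the 2 with the smallest p were Maf (-0.33 ± 0.13, SE; edgeR adjusted p = 0.276) and Atf7 (-0.50 ± 0.21; edgeR adjusted p = 0.287). The other Egr and Nr4a genes had 4 of 7 tested. In FLExDUX4 mice Nr4a3, a close relative of Nr4a1, differed by -3.48 ± 1.35 with running (edgeR adjusted p = 0.71) and Nr4a2 by -2.93 ± 1.64 (edgeR adjusted p = 0.818). Egr2, Egr3 and Egr4 had 39, 27 and 0 counts over all mice and were not tested, nor were Fosl1 with 5, Arc with 49 and Myc with 46.

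The 33 tested of 38 other immediate early genes had a median difference of -0.20 with running averaged over genotype, with 27 below 0, beside 0.01 over all tested genes. The 2 with the smallest p were Homer1, a scaffold of calcium signalling (-0.33 ± 0.11, SE; edgeR adjusted p = 0.149), and Trib1, a pseudokinase (-0.58 ± 0.20; edgeR adjusted p = 0.158). In FLExDUX4 mice 28 of 33 lay below 0 with running, led by Irs2, an insulin receptor substrate, at -0.99 ± 0.32 (edgeR adjusted p = 0.60), and 6 of 33 had an unadjusted p under 0.05, beside 6.66% of all genes. In WT mice 21 of 33 lay below 0 with running, with a median of -0.16, and 2 had an unadjusted p under 0.05, beside 10.7% of all genes. The difference between the genotypes was called for none of the 33. Of feedback inhibitors 15 of 19 were tested. Dusp10, a phosphatase of JNK and p38, was nearest to the threshold in WT runners against WT controls (-0.92 ± 0.23; edgeR adjusted p = 0.0589), and Dusp1 differed by -0.86 ± 0.36 (edgeR adjusted p = 0.413). Of upstream kinases and factors 30 of 31 were tested, with a median of -0.03 for running averaged over genotype and the smallest p for Map2k4, which activates JNK and p38 (-0.37 ± 0.13; edgeR adjusted p = 0.154). Crtc2, a CREB coactivator, differed by -1.70 ± 0.55 between FLExDUX4 and WT controls (edgeR adjusted p = 0.969). All 7 inducible heat shock genes were tested, and Hspb1, a small heat shock protein, differed by 0.61 ± 0.17 with running in WT mice (edgeR adjusted p = 0.096).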

How the data were processed

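Triceps RNA of 14 mice was sequenced as 3′-end libraries (QuantSeq FWD, per the labels' protocols). The authors deposited raw read counts per gene and mouse, with the sums of each group and log2 fold changes, p values and adjusted p values of their own comparisons. Per the submitters' processing notes the tools were cutadapt 1.16, FastQC 0.11.7, STAR 2.5.3a, featureCounts 1.6.2 and DESeq2, with GRCm38 and GRCh38. The annotation release, strand setting and handling of multiply aligned reads are not given in the sources used here. Coordinates are from GENCODE M21 on GRCm38; 9 of the 10 members had the deposited position at the annotated start coordinate.

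The table had 52649 rows: 52550 genes and 99 spike-ins (0.963% to 1.53% of counts), which were set aside. In every row the deposited group sums matched those of the mice. No 2 replicates looked like 1 library, since their counts differed by a chi-square of at least 5.46 per degree of freedom. Separate mice are the replicates. Reads carry no molecular identifiers here, so floors of 3 counts cover counting error only.

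Counts were tested with edgeR 4.0.16 in R 4.3.3: TMM factors, filterByExpr with a minimum count of 10 (11088 genes), 1 robust quasi-likelihood fit over 14 mice with a mean per group, and Benjamini-Hochberg adjustment over all tested genes with a threshold of 0.05. The common biological coefficient of variation was 0.288. The quasi-likelihood test gives no SE. The SE shown with edgeR values is the size of the log2 fold change divided by the square root of the F statistic. The script was tested on simulated data. Log2 CPM used a prior count of 2. Pairs of members were compared by exact permutation within groups (20736 arrangements). DESeq2 1.42.0, limma-voom (limma 3.58.1), other scalings, filters, thresholds and left-out mice were alternatives.

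All 10 members are described. From each related list the genes called, or else the 2 with the smallest p, were eligible to be named, and for likeness the 8 highest r. The comparisons shown for related genes, and the members of likeness lists given as examples, were chosen after their values were seen. Members and lists were chosen with earlier results of these data known.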

Additional observations from a re-analysis of the deposited data

How the results depend on the processing

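Without a filter on low counts, 1 member (Fos) was called for genotype in controls (-1.85, edgeR adjusted p = 0.0307) and 1 (Fos) for running in WT mice (-1.51, edgeR adjusted p = 0.0102), where 0.0573% and 1.04% of 20938 genes were called; the cause was not tested. The other 170 alternative counts of members called gave 0. With mice left out in turn, the number of member pairs past an adjusted exact permutation p of 0.05 ran from 0 to 1, the 1 being Atf3 and Btg2 (adjusted p = 0.0195) without WT control 3. Of the running differences averaged over genotype (log2), spike-in library sizes turned Jun to 0.09, Jund to 0.04 and Btg2 to 0.07, and brought the median of all genes to 0.21 from 0.01. Limma-voom turned Ier2 to -0.05 and Btg2 to 0.29. Leaving out mice gave Jund -0.26 to 0.08, with 0.03 without WT control 2 and 0.08 without FLExDUX4 control 2. It gave Btg2 -0.31 to 0.26, with 0.17 without WT control 3 and 0.26 without FLExDUX4 control 2. The cause of these turns was not tested. Fosb within FLExDUX4 mice was -0.89 and Fosb on average -0.86 by limma-voom. No paired analysis was possible because the labels give each mouse a number that no other mouse shares. Depth limits Fosb and Ier2 most, with 52 and 153 counts in all.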

Other observations

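The SD of log2 CPM within groups was larger in the 6 controls than in the 8 runners for 7 of 10 members (70.0%), beside 48.4% of all tested genes. Fosb is among the 7, with 1.79 in controls and 0.78 in runners. It passed the filter on low counts through controls alone, which favours a larger SD in controls, so nothing is read from its SD. For Fos the SD was 1.30 in controls and 0.56 in runners, for Junb 1.44 and 0.68, for Btg2 1.11 and 0.36 and for Jun 0.32 and 0.16. Nr4a1 went the other way, with 0.63 in controls and 0.92 in runners, as did Ier2 with 0.54 and 1.04 and Atf3 with 1.13 and 1.23. This was seen in the data and was not tested.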
